A study of Homo sapiens with 15 samples.

Results

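Metallothioneins are small, cysteine-rich proteins that bind zinc and copper. The 6 genes *MT1E*, *MT1F*, *MT1G*, *MT1M*, *MT1X* and *MT2A* were taken by symbol from RNA-seq of 15 libraries of the ccRCC lines CAKi-1 and 786O. Of these, 5 were measured in both lines, among 16296 genes listed for CAKi-1 and 16188 for 786O, and *MT1M* was not analysed here. Of 11 other genes of the family, *MT1JP* was measured in both lines and *MT1A* in CAKi-1. CAKi-1 had 4 WT and 5 A4KO libraries, and 786O had 3 of each.

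A4KO cells lack *ANGPTL4*, which encodes a secreted inhibitor of lipoprotein lipase. The gene was cut by CRISPR-Cas9, clones were grown from single cells, and those that had lost *ANGPTL4* mRNA were mixed, so that each A4KO line is a pool of clones. WT cells of 786O were a mix of clones that had kept the mRNA. For CAKi-1 the sources differ on the WT cells, since the methods of the study name the parental line and the series record names mixed clones. If they were parental, the effects of cloning and of the knockout cannot be told apart in CAKi-1. In both lines the A4KO pool also holds other clones or cells than the WT cells do. Differences between these and the effect of the knockout cannot be told apart in either line. CAKi-1 has WT *VHL* and 786O carries mutant *VHL*. Cells were harvested in log-phase growth, and the sources differ on the medium (RPMI or DMEM). The labels do not say whether replicates were separate cultures, so the p-values measure the spread between these libraries, which may be technical.

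Transcription of metallothionein genes is switched on by *MTF1*, a zinc-sensing factor that binds short metal response elements in their promoters, and also responds to glucocorticoids and to oxidants. The proteins buffer free zinc, bind cadmium and copper, and are abundant in the proximal tubule of the kidney, from which ccRCC is thought to arise. *MT2A* is the main isoform in most human tissues, and the MT1 genes are a row of close copies beside it.

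The RefSeq promoter table (GRCh38.p14, 250 bases before to 50 after the gene start) holds *MT2A* and *MT1X* among the 5 measured members. *MT1E*, *MT1F* and *MT1G* are not in it. Both are shown as the promoters of listed members that the table holds, and both read 5′ to 3′ on the plus strand, *MT2A* at chr16:56608334-56608633 and *MT1X* at chr16:56682220-56682519. Capitals mark matches to the core of the metal response element, TGCACNC or TGCGCNC, on either strand.
MT2A: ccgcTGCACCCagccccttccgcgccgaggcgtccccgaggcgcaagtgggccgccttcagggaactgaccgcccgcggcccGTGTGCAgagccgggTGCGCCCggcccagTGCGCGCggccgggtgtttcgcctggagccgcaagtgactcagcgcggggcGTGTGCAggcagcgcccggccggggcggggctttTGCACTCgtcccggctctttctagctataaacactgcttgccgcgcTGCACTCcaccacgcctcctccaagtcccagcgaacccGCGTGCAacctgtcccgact
MT1X: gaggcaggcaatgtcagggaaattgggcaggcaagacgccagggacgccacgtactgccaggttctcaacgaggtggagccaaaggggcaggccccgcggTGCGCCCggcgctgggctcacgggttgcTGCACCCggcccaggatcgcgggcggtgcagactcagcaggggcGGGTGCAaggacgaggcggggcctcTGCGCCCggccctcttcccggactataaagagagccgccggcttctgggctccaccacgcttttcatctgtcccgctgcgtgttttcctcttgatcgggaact
The *MT2A* window holds 8 core matches and the *MT1X* window 4, none of them overlapping another. Of the family genes in the table that were not analysed here for expression, *MT1H* has 8 core matches, and *MT1B* and *MT4* have 3 each. Of 35116 promoters of this length, 29.6% hold at least 1 match, 2.30% at least 3, 0.601% at least 4 and 0.0199% at least 8. Both windows also hold a TATA box (TATAAA) on the strand of the gene, at -29 in *MT2A* and -30 in *MT1X*, as 7.33% of promoters do. A match describes the letters and does not show binding.

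The members are close copies, and the deposited values come from pseudoalignment, which can split reads between copies. Of the 31-base words in the GENCODE transcripts of each gene, 96.7% were found in no other gene for *MT1F*, 87.3% for *MT2A*, 84.4% for *MT1E*, 79.7% for *MT1X* and 76.7% for *MT1G*. *MT1G* shared 23.3% of its words with other genes of the family and *MT1F* 3.31%, and low values of *MT1G* beside far more abundant copies are uncertain. The words were pooled over all transcripts of a gene. The longest has 1573 bases for *MT1F* and 1727 for *MT1X*, against 425 and 404 in their canonical transcripts. Shares over the canonical transcripts alone were not computed, so these shares do not rank the members by certainty.

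The targeted gene followed the labels. *ANGPTL4* read 74.9, 83.2, 86.9 and 71.7 TPM (the share of a gene among all transcripts of a library, scaled for transcript length) in CAKi-1 WT replicates 1 to 4. The A4KO replicates 1 to 5 read 7.26, 2.87, 2.87, 6.47 and 2.90 TPM. In 786O it read 20.6, 17.6 and 18.1 TPM in the WT libraries and 2.19, 2.17 and 1.86 TPM in the A4KO libraries. Every A4KO library was below every WT library of its line (log2 fold change -3.96, limma adjusted p = 1.2e-05 in CAKi-1, and -2.69, 1.57e-06 in 786O). CAKi-1 A4KO replicates 1 and 4, which kept the most *ANGPTL4* mRNA, also stood apart across all genes of at least 1 TPM. Their median absolute log2 difference was 0.0788 from each other and 0.202 to 0.232 from replicates 2, 3 and 5, which differed by 0.0849 to 0.101 among themselves. Values for CAKi-1 are over all 9 libraries. The value over A4KO replicates 2, 3 and 5 alone, which was -4.36 for *ANGPTL4* (limma adjusted p = 4.92e-07), is given wherever a call of a family, list or neighbouring gene named below changes without the other 2, and for some further genes.

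*MT2A* was by far the most abundant metallothionein in both lines. In CAKi-1 it read 4487, 5442, 5718 and 7222 TPM in the WT libraries and 6926, 8151, 8151, 6611 and 8054 TPM in the A4KO libraries. WT replicate 4 was above 2 of the A4KO libraries, so that the groups overlapped. In 786O it read 3325, 3155 and 3278 TPM in the WT libraries and 3152, 3113 and 3230 TPM in the A4KO libraries, and the groups overlapped there too. Among all genes of a library, ordered by TPM, *MT2A* ranked 6 to 15 in CAKi-1 and 24 to 30 in 786O.

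*MT1X*, an MT1 isoform expressed in many tissues, read 147, 158, 167 and 204 TPM in the CAKi-1 WT libraries and 307, 378, 379, 267 and 353 TPM in the A4KO libraries. All 5 A4KO libraries exceeded the highest WT library. In 786O it read 255.9, 240 and 250.8 TPM in the WT libraries and 239, 221 and 232 TPM in the A4KO libraries, where the lowest WT library lay just above the highest A4KO library.

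*MT1F* read 23.2, 17.1, 23.3 and 23.3 TPM in the CAKi-1 WT libraries and 77.5, 57.3, 52.7, 70.7 and 58.9 TPM in the A4KO libraries. No A4KO library came near the WT range, and A4KO replicates 1 and 4 were the highest. In 786O it read 74.9, 73.5 and 77.8 TPM in the WT libraries and 65.1, 68.4 and 61.3 TPM in the A4KO libraries, so that here every A4KO library was below every WT library.

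*MT1E* read 108, 104, 111 and 131 TPM in the CAKi-1 WT libraries and 99.8, 129, 129, 99.6 and 132 TPM in the A4KO libraries. These groups overlapped, with A4KO replicates 1 and 4 the lowest of the 9 libraries. In 786O it read 468, 456 and 458 TPM in the WT libraries and 542, 553 and 567 TPM in the A4KO libraries, with no overlap.

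*MT1G* was the least abundant of the listed members. It read 2.03, 2.88, 2.74 and 4.18 TPM in the CAKi-1 WT libraries and 2.40, 3.36, 4.85, 3.29 and 2.62 TPM in the A4KO libraries, with the groups overlapping. In 786O it read 0.143, 0.0741 and 0.143 TPM in the WT libraries and 0.731, 0.7101 and 0.4657 TPM in the A4KO libraries. All 3 A4KO libraries were above the WT libraries, but at the 3000000 reads per library that the labels state, and a canonical transcript of 410 bases, these values would stand for 0.039 to 0.0753 of a read in WT and 0.251 to 0.397 of a read in A4KO libraries. At that number of reads, 12.8% to 15.6% of the genes of a library would have less than 1 read, though none is at 0. Every listed gene is above 0 in every library of its line, so genes with a 0 may have been left out before deposit. Reads split between copies can also leave fractions of a read, and the lowest value was 5.51e-11 TPM. The absence of values at 0 thus does not decide the depth. Whether the stated number holds was not tested, and the values of *MT1G* in 786O are uncertain.

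Of the genes outside the list, *MT1A* read 50.5, 61.8, 55.8 and 71.5 TPM in the CAKi-1 WT libraries and 29.8, 50.5, 47.5, 28.1 and 44.2 TPM in the A4KO libraries. The highest A4KO library lay just under the lowest WT library, and A4KO replicates 1 and 4 were the lowest. *MT1JP*, a transcribed pseudogene whose symbol GENCODE gives to a lncRNA and a pseudogene, lay between 0.0917 and 0.337 TPM in CAKi-1 and between 7.19 and 8.96 TPM in 786O.

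**Figure D1:**
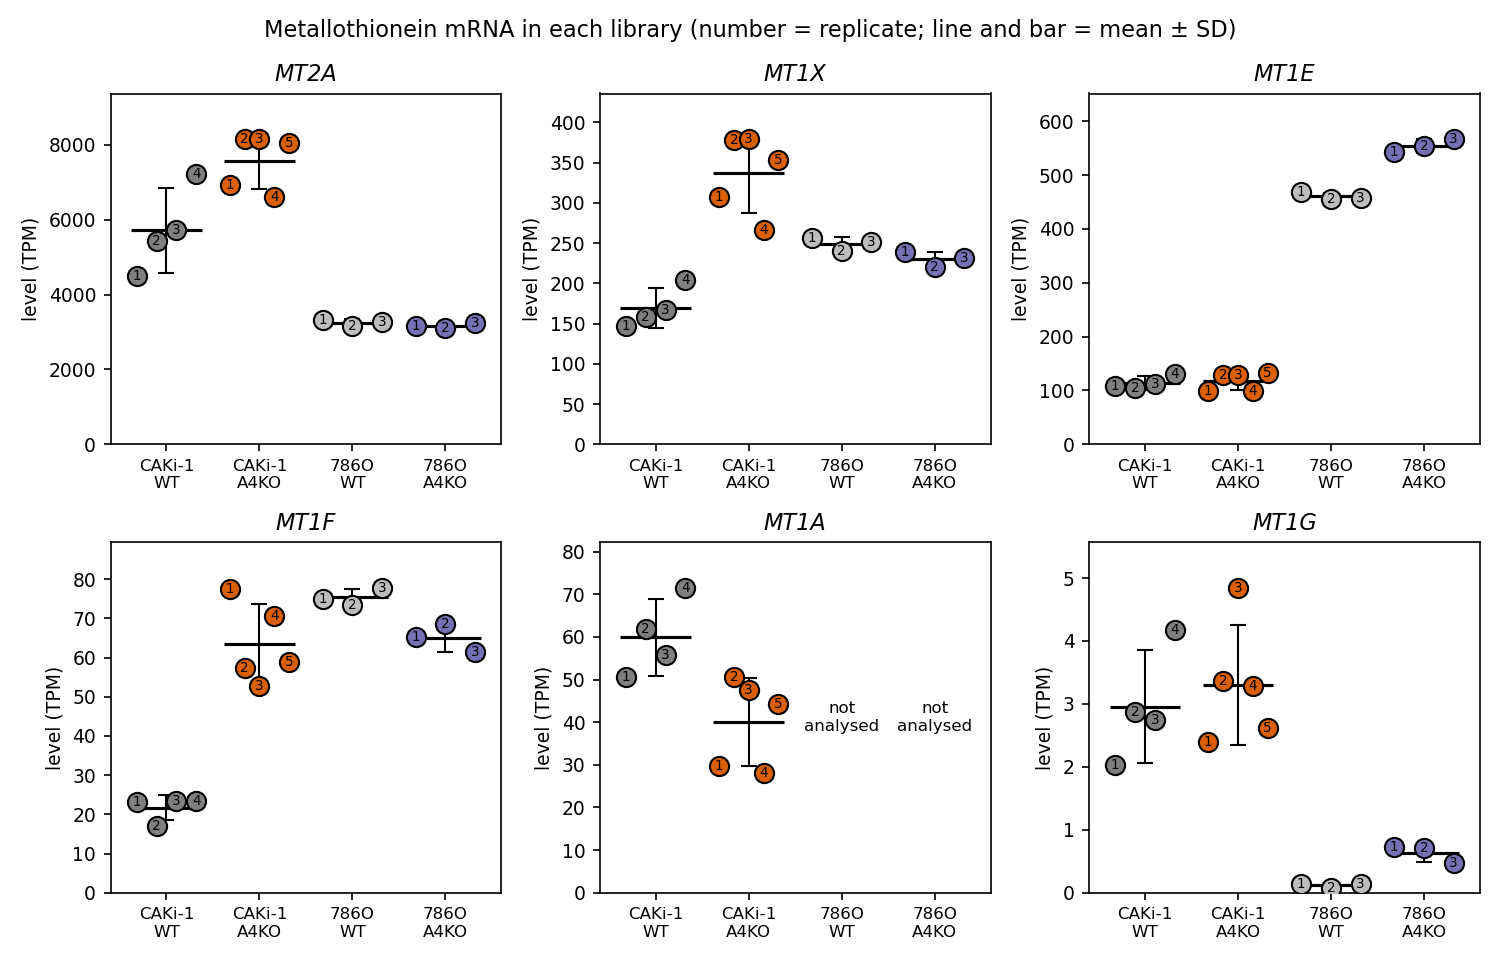
Level (TPM, linear axes from 0) of 6 metallothionein genes in each library of the 4 groups; each point is a library with its replicate number, and lines and bars are the mean ± SD (n = 4, 5, 3 and 3). In CAKi-1 *MT1F* and *MT1X*, which are higher in A4KO cells, and *MT1A*, which is lower, do not overlap between WT and A4KO. The same holds for 35.9% of all genes, while *MT2A*, *MT1E* and *MT1G* overlap.

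The order of the levels differed between the lines. In CAKi-1 WT cells it ran from *MT2A*, at 5717 ± 1133 TPM (SD, n = 4), over *MT1X*, *MT1E*, *MT1A*, *MT1F* and *MT1G* to *MT1JP*. *MT1F* and *MT1A* changed places in A4KO cells, where *MT1F* was at 63.4 ± 10.3 TPM and *MT1A* at 40.0 ± 10.4 TPM (SD, n = 5). In 786O, WT and A4KO cells had the order *MT2A*, *MT1E*, *MT1X*, *MT1F*, *MT1JP* and *MT1G*. Neighbours in each of these orders did not overlap in any of the 4 groups. The 2 lines come from separate tables, so levels across them are set side by side with no test.

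Loss of *ANGPTL4* in CAKi-1 went with more mRNA of *MT1F*, *MT1X* and *MT2A*. The mean of *MT1F* was 2.92 times the WT mean, that of *MT1X* 1.99 times and that of *MT2A* 1.33 times. With limma on log2(TPM + 1), and p adjusted by Benjamini-Hochberg across every gene listed for CAKi-1, 3 of the 5 listed members were higher in A4KO cells at an adjusted p of at most 0.05, as were 17.9% of all genes. On the log2 scale *MT1F* rose by 1.498 (standard error 0.13, limma adjusted p = 5.8e-05), above all 4 WT libraries in 5 of 5 A4KO libraries. *MT1X* rose by 0.99 (standard error 0.13, limma adjusted p = 4.27e-04), also in 5 of 5 libraries. *MT2A* rose by 0.42 (standard error 0.13, limma adjusted p = 0.0296). Without overlap between WT and A4KO libraries were 2 of the 5 listed members, and 35.9% of all genes. Since the mRNA of all cells of a culture was measured together, a rise in every cell and a larger share of cells with high levels cannot be told apart.

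*MT1F* also changed by 1 or more on the log2 scale, as did 3.33% of all genes, in either direction and past the adjusted p. *MT1X*, at 0.99, lay just under this limit and reached it in 6 of 16 alternatives. For *MT1E* the log2 fold change was 0.04 with a 95% interval from -0.21 to 0.30 (limma adjusted p = 0.79), and 0.20 (0.0944) over A4KO replicates 2, 3 and 5 alone, and for *MT1G* it was 0.12 with an interval from -0.29 to 0.53 (limma adjusted p = 0.637). *MT1A*, which is not among the listed genes, fell to 0.668 of its WT mean, or by 0.60 on the log2 scale (standard error 0.19, limma adjusted p = 0.0334), beside 21.1% of all genes lower in A4KO cells. The *MT2A* call was lost under quantile normalization (0.30, limma adjusted p = 0.187) and under a replicate block, which also drops the unpaired A4KO replicate 5 (0.40, 0.0793). It was also lost without WT replicate 1 (limma adjusted p = 0.0738), 2 (0.074) or 3 (0.0616) or A4KO replicate 2 (0.0608), 3 (0.0564) or 5 (0.0555). Its adjusted p ranged from 0.00644 to 0.187 across the alternatives, and its log2 fold change from 0.31 to 0.54 without single libraries. The *MT1A* call was lost under a replicate block (-0.64, limma adjusted p = 0.0514) and once the shift of the genes around the cluster was subtracted (-0.55, 0.0671). It was also lost without WT replicate 2 (limma adjusted p = 0.0788), 3 (0.0599) or 4 (0.0894), and without A4KO replicate 1 (0.0651) or 4 (0.0594). Without single libraries the log2 fold change lay between -0.69 and -0.48. Over A4KO replicates 2, 3 and 5 alone it was -0.32 (limma adjusted p = 0.0612), also with no call. The adjusted p of *MT1A* ranged from 0.0221 to 0.0894.

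A4KO replicates 1 and 4 of CAKi-1 differed from the other 3 A4KO libraries in most members. They were the highest for *MT1F* and the lowest for *MT2A*, *MT1X*, *MT1E* and *MT1A*. Over replicates 2, 3 and 5 alone, the log2 fold change was 1.34 for *MT1F* (limma adjusted p = 1.85e-04), 1.14 for *MT1X* (2.80e-04) and 0.53 for *MT2A* (0.0225), so that the 3 calls did not rest on replicates 1 and 4.

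In 786O the changes ran in both directions. *MT1E* rose to 1.20 times its WT mean and *MT1G*, from a very low level, to 5.29 times, while *MT1F* fell to 0.861 of its WT mean. Of the 5 listed members, 2 were higher in A4KO cells and 1 lower at an adjusted p of at most 0.05, against 27.5% and 33.5% of all genes. On the log2 scale *MT1E* rose by 0.27 (standard error 0.036, limma adjusted p = 8.92e-04), higher in 3 of 3 A4KO libraries. It turned to -0.091 (limma adjusted p = 0.0988) once the shift of the genes around the cluster was subtracted. That shift is the median of 50 expressed genes, 0.36 between the groups, while 11 protein-coding genes within 500 kb had a median of 0.097. *MT1G*, whose reads were few if any at the stated depth, rose by 0.54 (standard error 0.074, limma adjusted p = 9.37e-04), or by 1.74 with a pseudocount of 0.1, since a pseudocount of 1 holds back the fold of so low a gene, and lost its call with that shift subtracted (0.19, limma adjusted p = 0.0626). *MT1F* fell by 0.21 (standard error 0.052, limma adjusted p = 0.0119), lower in 3 of 3 A4KO libraries.

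*MT1X* had a log2 fold change of -0.11 with a 95% interval from -0.22 to -0.00030 (limma adjusted p = 0.0769), and passed under quantile normalization (0.0434) under eBayes with trend and robust options (0.0302), and with the shift of the surrounding genes subtracted (-0.47, limma adjusted p = 5.36e-04), in a range from 5.36e-04 to 0.208 over all alternatives. *MT2A* had one of -0.04 with an interval from -0.13 to 0.053 (limma adjusted p = 0.417), its direction turned under quantile normalization (0.059, limma adjusted p = 0.274), and it passed as lower with that shift subtracted (-0.40, limma adjusted p = 5.52e-04), in a range from 5.52e-04 to 0.671. No overlap between WT and A4KO libraries was found for 4 of the 5 members, which is read against 66.9% of all genes. A change of 1 or more on the log2 scale was reached by 0 of the 5 with limma, where 7.62% of all genes passed this rule. With a pseudocount of 0.1 it was 1 member, *MT1G*, beside 12.9% of all genes. At an unadjusted p under 0.05, 2 members were higher and 2 lower, against 29.1% and 35.4% of all genes.

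The change of 3 members differed between the lines. A limma interaction term over the 15247 genes measured in both lines, which takes each change within its own line, put the change in CAKi-1 above that in 786O for 3 of the 5 listed members, as for 28.8% of all genes, and below it for 0 of the 5, as for 26.3%. In either direction 55.1% of all genes differed, a share close to 3 of 5, and at an unadjusted p under 0.05 the limma counts of the members were the same, 3 and 0, against 31.5% and 28.4% of all genes. The difference was 1.71 on the log2 scale for *MT1F* (standard error 0.18, limma adjusted p = 2.32e-06), whose direction was opposite in the lines. It was 1.10 for *MT1X* (standard error 0.17, limma adjusted p = 9.02e-05) and 0.46 for *MT2A* (standard error 0.17, limma adjusted p = 0.0342). *MT1E* had a difference of -0.22 with a 95% interval from -0.54 to 0.097 (limma adjusted p = 0.223), so that its rise in 786O was not shown to differ from CAKi-1. *MT1G* had one of -0.42 with an interval from -0.95 to 0.11 (limma adjusted p = 0.165), which passed with a pseudocount of 0.1 (-1.58, limma adjusted p = 0.00226) and without CAKi-1 A4KO replicate 3 (-0.54, limma adjusted p = 0.0414), in a range from 0.00226 to 0.974. The call for *MT2A* was lost under quantile normalization (0.25, limma adjusted p = 0.353), without CAKi-1 WT replicate 1 (0.0541) or 2 (0.0582), without CAKi-1 A4KO replicate 2 (0.0545), 3 (0.053) or 5 (0.0525), without 786O WT replicate 1 (0.0678) or 3 (0.0632), and without 786O A4KO replicate 1 (0.0615), 2 (0.0658) or 3 (0.053), with a range from 0.00193 to 0.353.

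**Figure D2:**
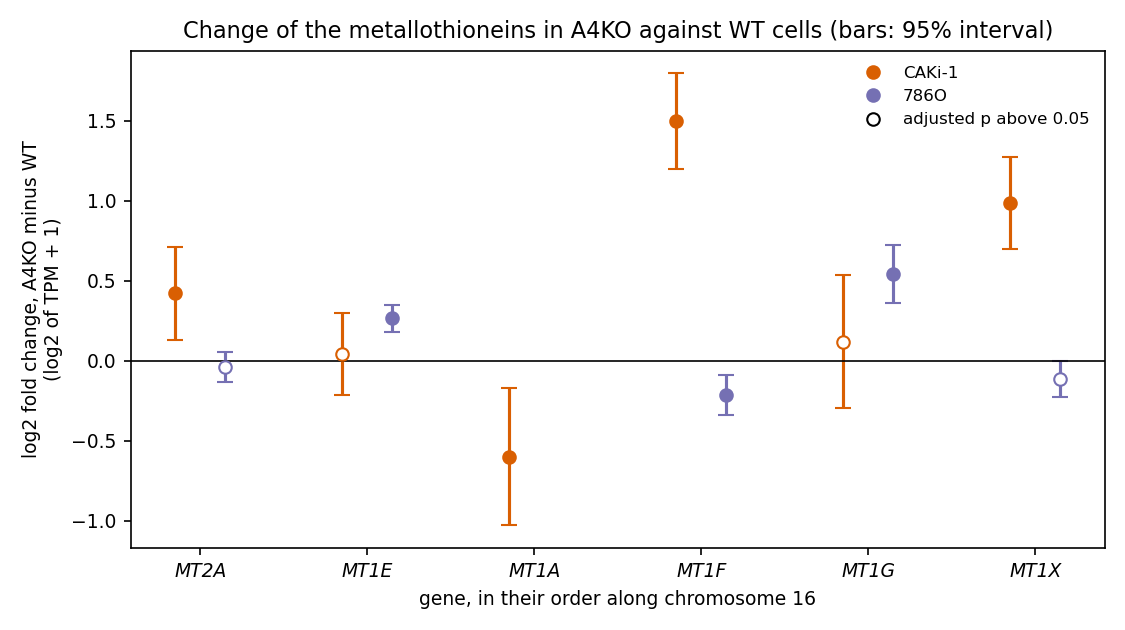
Log2 fold change (A4KO minus WT, on log2 of TPM + 1) of 6 metallothionein genes in CAKi-1 (9 libraries) and 786O (6 libraries), with 95% intervals from limma; open points have an adjusted p above 0.05. *MT1F* lies at 1.498 in CAKi-1 and at -0.21 in 786O, where *MT1E* turns to -0.091 once the median shift of 50 surrounding genes is subtracted and *MT2A* turns to 0.059 under quantile normalization.

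The makeup of the family within each library shows the same genes without the scaling between libraries. Summed over the 5 listed members, the level was 6025 ± 1170 TPM in CAKi-1 WT (SD, n = 4) and 8100 ± 804 TPM in A4KO cells (SD, n = 5), and the lowest A4KO library, at 7051 TPM, was below the highest WT library, at 7585 TPM. *MT2A* made up 94.1% to 95.2% of the sum in WT and 93.4% to 93.8% in A4KO cells. The share of *MT1X* went from 2.69% to 3.08% in WT to 3.78% to 4.35% in A4KO cells, and that of *MT1F* from 0.299% to 0.486% to 0.604% to 1.05%. That of *MT1E* was 1.73% to 2.27% in WT and 1.35% to 1.53% in A4KO cells. None of these 4 shares overlapped between the groups, while that of *MT1G* did (0.0426% to 0.0551% in WT and 0.0305% to 0.0556% in A4KO cells). The shares add up to the whole, so that a rise of some lowers others, and they are not separate observations. Such non-overlap was not counted for other genes.

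In 786O the sum was 4038 ± 102 TPM in WT and 4015 ± 68.3 TPM in A4KO cells (SD, n = 3 each). *MT2A* made up 80.4% to 80.7% of it in WT and 78.7% to 79.0% in A4KO cells, and *MT1E* 11.3% to 11.6% and 13.6% to 13.98%. *MT1X* stood at 136% to 155% of *MT1E* in CAKi-1 WT libraries and at 267% to 308% in A4KO libraries, but at 52.6% to 54.8% in 786O WT and 39.9% to 44.002% in 786O A4KO libraries. Against *MT1E*, then, *MT1X* was higher in all A4KO libraries of CAKi-1 and lower in all of 786O. These shares and ratios are descriptions and were not tested.

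**Figure D3:**
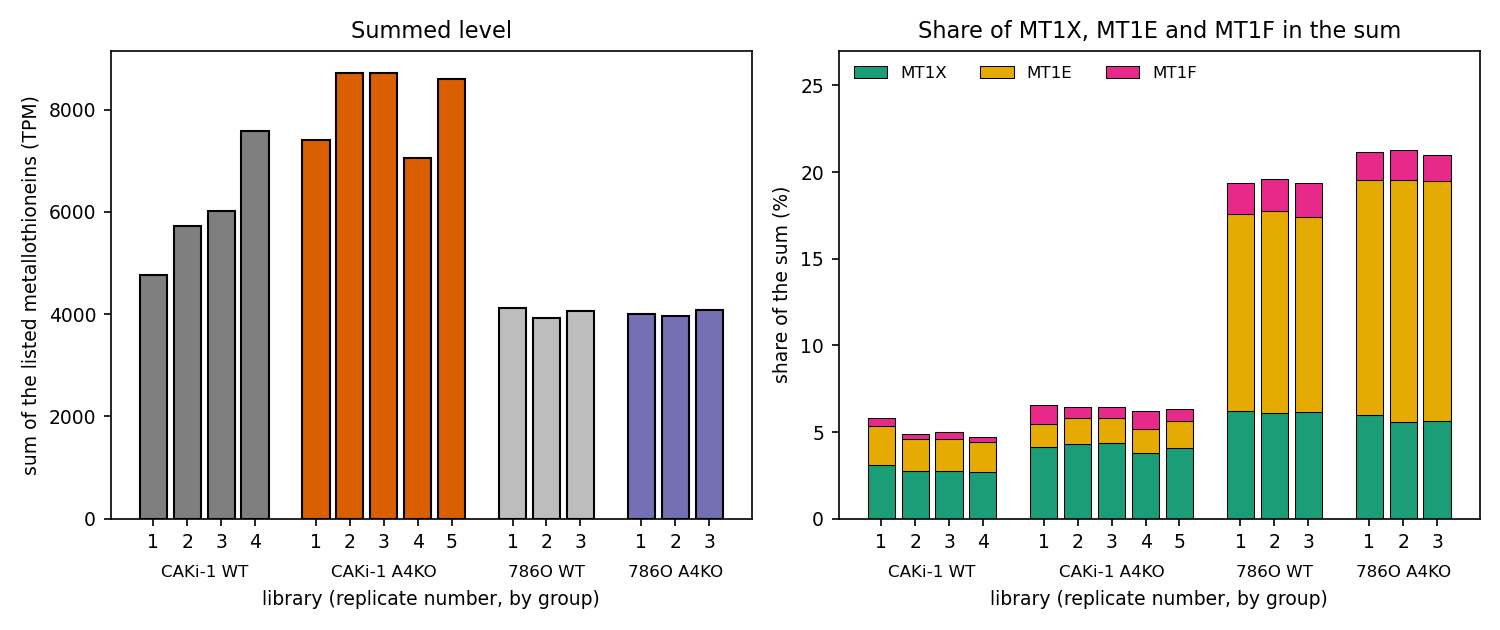
Left, the summed level (TPM) of the 5 listed metallothioneins in each library; right, the share (%) of the sum held by *MT1X*, *MT1E* and *MT1F*, the rest being *MT2A* and a trace of *MT1G*. *MT1E* holds 11.3% to 13.98% of the sum in 786O and 1.35% to 2.27% in CAKi-1.

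All measured members lie on chromosome 16 of hg38, in a cluster of 119.1 kb from *MT4* to *MT1X* (56565073 to 56684196). *MT2A* (ENSG00000125148.7) runs from 56608584 to 56609497, *MT1E* (ENSG00000169715.15) from 56625475 to 56627112, *MT1F* (ENSG00000198417.7) from 56657731 to 56660698 and *MT1X* (ENSG00000187193.9) from 56682470 to 56684196, all on the plus strand. *MT1G* (ENSG00000125144.14) lies on the minus strand between *MT1F* and *MT1X*, from 56666730 to 56668065. *MT1A* (ENSG00000205362.11), at 56638666 to 56640087, lies between *MT1E* and *MT1F*. In CAKi-1 the rises of *MT2A*, *MT1F* and *MT1X* were thus interleaved with *MT1E*, *MT1A* and *MT1G*, of which none was higher at the adjusted p.

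Genes around the cluster moved as well. In 786O the 25 expressed genes (mean log2 of at least 1) on each side, which lie between 47461123 and 58513628, had a median log2 fold change of 0.36, with 34 of 50 higher and 7 lower at the adjusted p, and the 584 expressed genes of chromosome 16 had a median of 0.33, with 398 higher and 58 lower. Over all 12569 expressed genes the median was -0.04, with 4081 higher and 4781 lower. The median of chromosome 16 ranked 2 of 23 chromosomes in 786O. In CAKi-1 the 50 neighbours had a median of -0.05, with 11 higher and 18 lower. The 578 expressed genes of chromosome 16 had a median of -0.18 there, with 64 higher and 250 lower, and ranked 21 of 23 chromosomes, while all 12674 expressed genes had a median of -0.03, with 2563 higher and 3163 lower.

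Once the median shift of these neighbours was subtracted in each library, the picture in 786O changed. *MT1E* turned to -0.091 (limma adjusted p = 0.0988, in a range from 4.44e-05 to 0.0988) and *MT1G* lost its call (0.19, limma adjusted p = 0.0626, in a range from 3.35e-04 to 0.0626). *MT1F* fell by 0.57 (limma adjusted p = 1.94e-04), *MT1X* by 0.47 (5.36e-04) and *MT2A* by 0.40 (5.52e-04). Relative to these 50 genes, then, 3 of the 5 members were lower in 786O A4KO cells and 2 did not pass, beside 29.8% of all genes lower and 29.2% higher on such values. This depends on the genes chosen. The 11 other protein-coding genes analysed within 500 kb had a smaller median in 786O, 0.097, and subtraction of their shift was not tested. In CAKi-1 the same step left the log2 fold changes at 1.55 for *MT1F*, 1.04 for *MT1X* and 0.47 for *MT2A*, all of which passed, beside 20.8% of all genes higher. The part of the chromosome-wide shift in the level of the members was not tested.

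Closer to the cluster the shift was uneven. Of the 11 other protein-coding genes within 500 kb that were analysed here, 4 were higher in 786O and 7 did not pass (median of all 11 0.097), and in CAKi-1 3 were higher, 5 lower and 3 did not pass (median 0.018). Over A4KO replicates 2, 3 and 5 alone, 2 were higher and 4 lower in CAKi-1 (median -0.04), beside 16.7% and 22.2% of all genes. With all libraries, 27.5% of all genes were higher and 33.5% lower in 786O, and 17.9% and 21.1% in CAKi-1. *OGFOD1*, a ribosomal protein hydroxylase, had a log2 fold change of 0.27 in 786O (limma adjusted p = 0.00366) and of -0.56 in CAKi-1 (0.00344), or -0.40 (0.00146) over replicates 2, 3 and 5. *NUP93*, a nuclear pore protein, had 0.26 (limma adjusted p = 0.0102) and -0.46 (0.0367), or -0.22 (0.0117) over those 3. *BBS2*, whose annotated span overlaps the start of the cluster, had 0.10 in 786O (limma adjusted p = 0.268) and 0.33 in CAKi-1 (0.0266), with 0.20 (limma adjusted p = 0.06) over replicates 2, 3 and 5.

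*HERPUD1*, a gene induced by stress of the endoplasmic reticulum, was higher in both lines (log2 fold change 0.36, limma adjusted p = 0.0138 in CAKi-1, and 0.19, 0.022 in 786O), with 0.23 (0.0173) over CAKi-1 replicates 2, 3 and 5, and *NLRC5*, an activator of MHC class I genes, was higher in CAKi-1 (0.56, limma adjusted p = 0.0354, and 0.29, 0.0449 over replicates 2, 3 and 5). *PSME3IP1* was higher in 786O (0.48, limma adjusted p = 4.07e-04) and lower in CAKi-1 (-0.20, 0.0391), with -0.15 (limma adjusted p = 0.12) over replicates 2, 3 and 5. *NUDT21* (-0.36, limma adjusted p = 0.00446, and -0.27, 0.00475 over replicates 2, 3 and 5) and *CPNE2* (-0.15, 0.0385) were lower in CAKi-1, with 0.03 and -0.02 in 786O (limma adjusted p = 0.702 and 0.772). *GNAO1*, *SLC12A3* and *CETP* were below 1 TPM on average in every group and did not pass in either line. *MT1F* and *MT1X* in CAKi-1 had larger rises than any of these 11 neighbours.

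**Figure D4:**
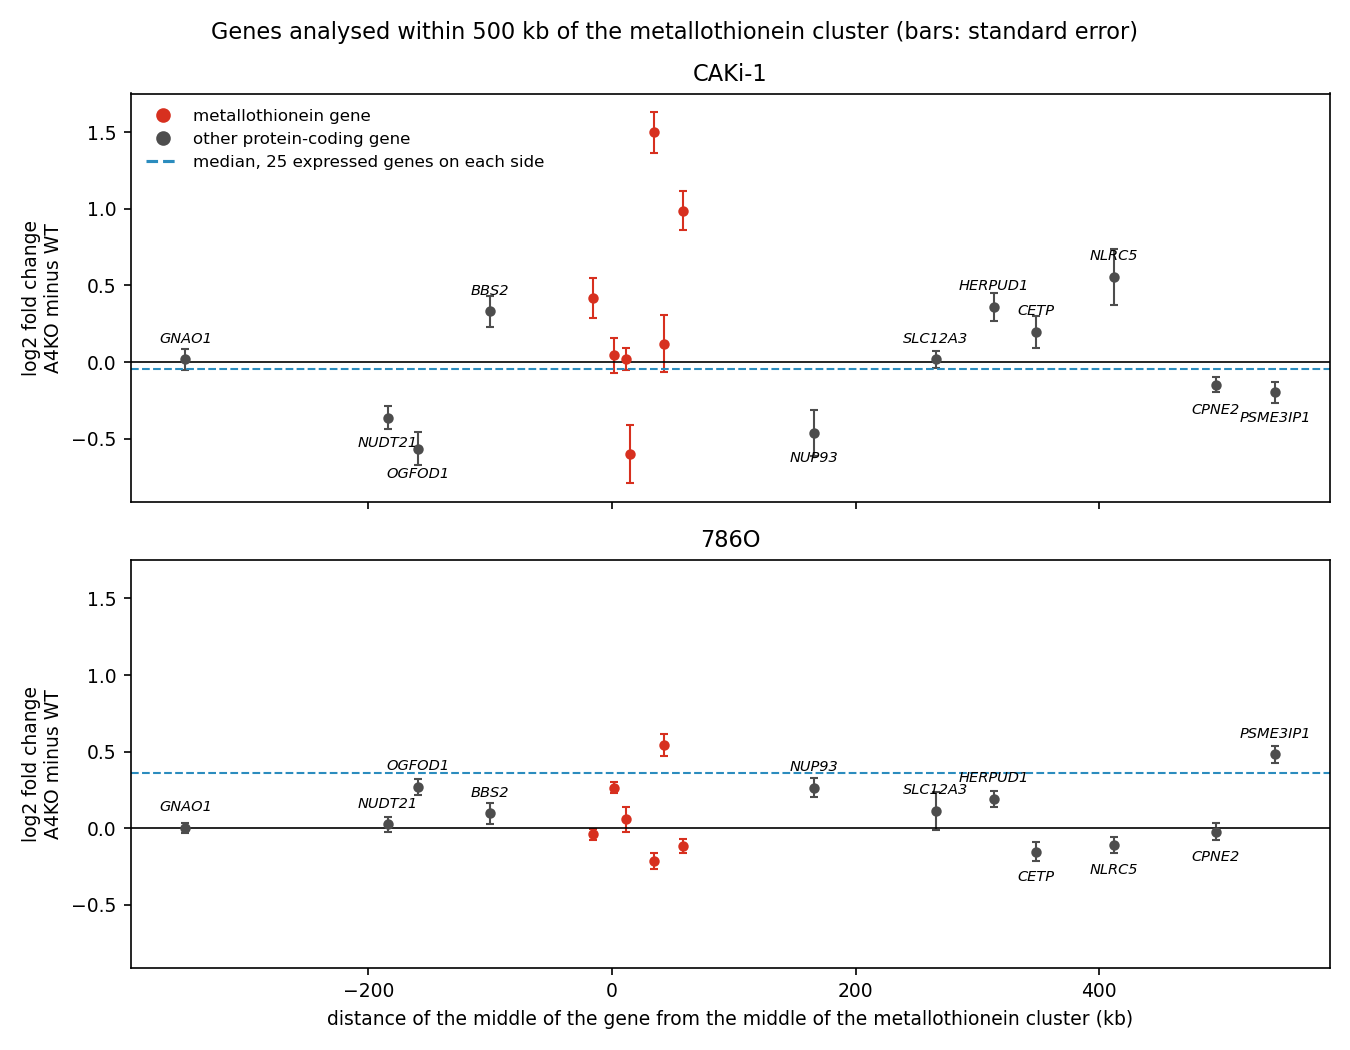
Log2 fold change (A4KO minus WT, with standard error) of the metallothionein genes and of the 11 other protein-coding genes within 500 kb that were analysed, by distance (kb) from the middle of the cluster; the dashed line is the median of 25 expressed genes on each side, -0.05 in CAKi-1 and 0.36 in 786O. In CAKi-1 *MT1F* and *MT1X* stand above these 11 neighbours, and in 786O the metallothioneins other than *MT1G* lie under the dashed line, where *MT2A* turns to 0.059 under quantile normalization.

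The zinc sensor and the zinc exporters include the usual companions of metallothioneins among zinc-induced genes. *MTF1* read 5.02, 5.10, 5.65 and 5.45 TPM in the CAKi-1 WT libraries and 6.94, 6.57, 7.67, 7.14 and 7.51 TPM in the A4KO libraries, with no overlap, and rose by 0.37 on the log2 scale (standard error 0.057, limma adjusted p = 9.95e-04). In 786O its log2 fold change was -0.07 (limma adjusted p = 0.436), and the difference between the lines was 0.44 (limma adjusted p = 9.50e-04). *SLC30A1*, the exporter of zinc at the cell membrane and itself a target of *MTF1*, read 28.8, 29.7, 27.5 and 26.4 TPM in the CAKi-1 WT libraries and 24.3, 23.9, 25.9, 24.0 and 24.8 TPM in the A4KO libraries, all of them below the WT libraries. It fell where *MT1F*, *MT1X* and *MT2A* rose, by 0.18 on the log2 scale (standard error 0.050, limma adjusted p = 0.0175), and had a log2 fold change of -0.04 in 786O (limma adjusted p = 0.483). Of the 10 genes of this list measured in CAKi-1, 2 were higher and 1 lower, and of 9 in 786O 3 were higher and 1 lower (medians -0.03 and -0.02). Over A4KO replicates 2, 3 and 5 alone, 1 was higher and 1 lower in CAKi-1 (median -0.07). These and the lists below are read beside all genes, of which 17.9% were higher and 21.1% lower in CAKi-1 (median -0.01), and 27.5% and 33.5% in 786O (median -0.03). No list was tested as a whole.

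Of 11 zinc importers measured in CAKi-1, 6 were higher and 2 lower (median 0.19), with 5 and 3 over replicates 2, 3 and 5 (median 0.20), and of 12 in 786O 3 were higher and 3 lower (median -0.10). Among copper genes, 1 of 12 was higher and 4 lower in CAKi-1 (median -0.02), with 1 and 2 over replicates 2, 3 and 5 (median -0.01), and 4 were higher and 5 lower in 786O (median -0.06), where *COMMD1*, a regulator of copper export, fell by 1.17 on the log2 scale (limma adjusted p = 2.50e-05).

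Of 10 iron genes, 5 were higher and 0 lower in CAKi-1 with limma (median 0.34), with 5 and 1 at an unadjusted p under 0.05, beside 22.4% and 25.9% of all genes. Over A4KO replicates 2, 3 and 5 alone, 3 were higher and 2 lower (median 0.31). In 786O 5 were higher and 4 lower (median 0.11). *FTH1*, the heavy chain of ferritin, read 4807, 4949, 5943 and 8180 TPM in the CAKi-1 WT libraries and 17954, 10296, 8780, 19297 and 11441 TPM in the A4KO libraries, with A4KO replicates 1 and 4 the highest as for *MT1F* (log2 fold change 1.146, limma adjusted p = 0.00767, and 0.79, 0.0143 over replicates 2, 3 and 5). Of 12 genes induced by metal, heat or oxidants, 1 was higher and 5 lower in CAKi-1 (median -0.25), with the same counts over replicates 2, 3 and 5 (median -0.06), and 6 were higher and 2 lower in 786O (median 0.09). *HMOX1*, the heme oxygenase, rose in CAKi-1 (0.62, limma adjusted p = 1.68e-04) and fell in 786O (-2.19, limma adjusted p = 3.72e-07), as *MT1F* did. *BAG3*, a co-chaperone of the heat response, went the other way (-1.03 in CAKi-1, limma adjusted p = 2.20e-05, -0.94, 3.56e-05 over replicates 2, 3 and 5, and 0.68 in 786O, 4.61e-05). *SLC7A11*, the cystine importer, fell in 786O (-1.04, limma adjusted p = 5.78e-06) and had -0.09 in CAKi-1 (0.423).

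Of 10 glucocorticoid-responsive genes, 5 were higher and 2 lower in CAKi-1 (median 0.29), 4 higher and 4 lower over A4KO replicates 2, 3 and 5 alone (median 0.18), and 3 were higher and 3 lower in 786O (median -0.09). *TSC22D3*, a mediator of glucocorticoid action, rose in CAKi-1 (1.01, limma adjusted p = 0.00126, and 0.81, 0.00262 over replicates 2, 3 and 5) and fell in 786O (-0.84, 1.80e-05). *CEBPD*, a transcription factor, read 22.1, 26.7, 51.0 and 94.6 TPM in the CAKi-1 WT libraries and 111.7, 94.8, 76.5, 113.5 and 77.2 TPM in the A4KO libraries, so that the groups overlapped (1.16, limma adjusted p = 0.0356). Its call was lost over replicates 2, 3 and 5 (0.98, limma adjusted p = 0.134), and it fell in 786O (-1.24, 3.18e-06).

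Most markers of the lines also changed in A4KO cells. Of 8 renal epithelial and ccRCC markers, 7 were measured in CAKi-1, where 2 were higher and 4 lower (median -0.50), with 1 and 4 over replicates 2, 3 and 5 (median -0.40), and all 8 in 786O, where 3 were higher and 5 lower (median -0.27). *VIM* was the most abundant in every library, at 2002 to 3297 TPM in CAKi-1 and 3401 to 4640 TPM in 786O. *KRT8* fell by 1.88 (limma adjusted p = 3.20e-04) and *KRT18* by 1.57 (6.34e-04) in CAKi-1, and *CDH2* by 1.33 (1.56e-06), while *CA12* rose by 1.55 (limma adjusted p = 0.0076). Over replicates 2, 3 and 5 these were -1.53, -1.26, -1.27 and 0.99 (limma adjusted p from 8.17e-06 to 6.26e-04). In 786O *PAX2* rose by 1.78 (limma adjusted p = 3.22e-06) and *CA12* by 0.73 (3.62e-05), while *CDH2* fell by 0.78 (1.08e-05), *KRT8* by 0.46 (1.07e-04) and *KRT18* by 0.15 (0.0138). *VIM* fell by 0.50 in CAKi-1 (limma adjusted p = 9.75e-04, and -0.40, 7.11e-04 over replicates 2, 3 and 5) and by 0.40 in 786O (1.50e-04). Of 7 markers of other cell types, 4 were measured in CAKi-1 and 3 in 786O. *CD68*, a lysosomal protein, was the most abundant of them in every library. The summed level of the list lay between 52.1 and 65.4 TPM in CAKi-1, and between 43.5 and 44.8 TPM in WT and 20.015 and 21.7 TPM in A4KO cells of 786O, where *CD68* fell by 1.06 (limma adjusted p = 5.73e-06). In CAKi-1 *CD68* had -0.08 (limma adjusted p = 0.406), and -0.16 (0.0376) over replicates 2, 3 and 5. *PECAM1*, an endothelial marker, was at 0.209 to 0.555 TPM in CAKi-1 WT and 1.54 to 6.17 TPM in A4KO cells (1.55, limma adjusted p = 0.00274), highest in A4KO replicates 1 and 4 and at 1.11 without them (limma adjusted p = 3.73e-04), and *PTPRC*, which marks leukocytes, was at most 0.541 TPM in every library. *PECAM1* fell by 0.46 in 786O (limma adjusted p = 0.0104). *CD3E*, *VWF* and *HBB* were not analysed here. The part of a change in cell state in the level of the members was not tested.

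The genes most like each member in pattern were sought among 9504 genes with a mean of at least 5 TPM in both lines, by the root mean square difference over the 15 libraries of log2(TPM + 1), taken as deviation from the WT mean of the line. For *MT1F* they were *HLA-B* (0.145), *BMP1* (0.152) and *TMEM267* (0.162), and for *MT1X* they were *ABLIM3* (0.129), *MFSD3* (0.166) and *BTN2A2* (0.183). *RAB27A* (0.0991), *LONP1* (0.103) and *RNF19B* (0.119) were nearest to *MT2A*, and *COLGALT1* (0.0677), *AAGAB* (0.0712) and *CFAP298* (0.0757) to *MT1E*. *MT1G*, under 5 TPM, was not compared. Among the 4 members compared, the closest pair was *MT1E* and *MT2A* (0.272), then *MT1X* and *MT2A* (0.335), and the farthest was *MT1E* and *MT1F* (0.899). This measure includes the change between WT and A4KO cells in each line. Genes with small changes therefore lie close in it, whether or not they vary together.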

How the data were processed

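The labels give genotype and replicate of 15 libraries. According to the methods of the study, reads were pseudoaligned to hg38 with kallisto, and the authors deposited a table of TPM per gene for each line. The unit was read from the values, which sum to 961437 to 973887 in a library. TPM does not keep read numbers. The labels state 3000000 reads per library. With canonical GENCODE transcript lengths (uncorrected for fragment length) 12.8% to 15.6% of the genes of a library would then have less than 1 read while none is at 0. Genes with a 0 may have been left out before deposit, and pseudoalignment can give fractions of a read, so this does not decide the depth. Shares of all genes are over the listed genes, each above 0 in every library of its line. The stated number was not tested, and counting errors were not computed from it. On log2(TPM + 1), which understates the change of low genes, A4KO was compared with WT in each line. This used limma 3.58.1 (lmFit, eBayes, two-sided) in R 4.3.3 on the listed genes with no further filter. The lines were compared by an interaction term. Adjusted p-values (Benjamini-Hochberg) cover every gene of the fit. The fit within each line was tested on simulated data. Members, lists and rules were chosen with earlier results of these data known. Named genes are the family, *ANGPTL4*, *MTF1* and *SLC30A1*, the list genes past an adjusted p of 0.05 that changed by 1 or more on the log2 scale in either line (at most 4 per list and line), 11 protein-coding genes within 500 kb, and the 3 genes nearest in pattern to each member of at least 5 TPM. *VIM* and *PTPRC* were named after their values were seen. Alternatives were a pseudocount of 0.1, a minimum of 1 TPM, quantile normalization, eBayes with trend and robust options, a replicate block, single libraries left out, CAKi-1 A4KO replicates 2, 3 and 5 alone, and neighbour-centred values.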

Additional observations from a re-analysis of the deposited data

Results flagged for a closer look

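Among 14 groups of 4 or 5 libraries over the family, in which about 1 in 20 would be expected to hold such a library by chance, 1 had a library far from the rest, *MT1F* in CAKi-1 WT cells, where replicate 2 was at 17.1 TPM and the other 3 were between 23.2 and 23.3 TPM. Without it the rise of *MT1F* kept its call. The 14 groups share libraries, so that they are not independent of each other. The change on loss of *ANGPTL4* differed between the lines for 3 of the 5 listed members, a share close to the 55.1% of all genes. In CAKi-1 minus 786O it was 1.71 on the log2 scale for *MT1F*, 1.10 for *MT1X* and 0.46 for *MT2A*, by the interaction term of limma, and the call of *MT2A* was lost in 11 of 20 alternatives. The direction of *MT1F* was opposite in the lines, with both changes past the adjusted p. What sets the lines apart was not tested.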

How the results depend on the processing

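The rises of *MT1F* and *MT1X* in CAKi-1 kept their direction and their call in all 16 alternatives, between 1.34 and 1.57 and between 0.92 and 1.14 on the log2 scale, and so did the differences between the lines of both in all 20, between 1.56 and 2.12 and between 1.04 and 1.51. The fall of *MT1F* in 786O kept its call in all 12 (-0.57 to -0.17). *MT2A* in CAKi-1 lost its call in 8 of 16 and its difference between the lines in 11 of 20, and *MT1A* lost its call in 8 of 16. When a change of 1 or more on the log2 scale was asked for as well, the number of listed members changed went from 3 to 1 in CAKi-1 and from 3 to 0 in 786O with limma. This is a stricter rule, which 3.33% and 7.62% of all genes passed. Under this rule the count in CAKi-1 was 2, with *MT1X*, in 6 of 16 alternatives, beside 2.53% to 3.55% of all genes. That in 786O was 1, *MT1G*, with a pseudocount of 0.1, beside 12.9% of all genes. Without single libraries the number changed was 2 to 3 in CAKi-1, 3 in 786O, and 2 to 3 for the difference between the lines. The shares of all genes in these fits were 30.4% to 39.9%, 55.9% to 56.8% and 51.1% to 56.3%.

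After subtraction of the median shift of 50 expressed genes around the cluster, *MT1E* in 786O turned to -0.091 (limma adjusted p = 0.0988) and *MT1JP* in 786O to -0.30, which passed (0.0207). The differences between the lines turned to 0.19 for *MT1E* (limma adjusted p = 0.391) and 0.37 for *MT1JP*, which passed (0.0151), in an alternative chosen after seeing the data. Under quantile normalization *MT2A* in 786O turned to 0.059. The cause was not tested. Without single libraries and on values as deposited, *MT1JP* ranged from -0.017 to 0.056 in CAKi-1, from -0.00095 to 0.13 in 786O, and from -0.11 to 0.022 in the difference, with no call.

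Libraries of the same replicate number in WT and A4KO cells had deviations from their group means that correlated, across genes, at -0.0606 to 0.134 in CAKi-1 and at -0.0464 to 0.0178 in 786O, so the numbers were not used as pairs. With a replicate block, 2 of the 5 listed members were changed in CAKi-1 and 3 in 786O, close to the 34.4% and 57.5% of all genes. In CAKi-1 the block also drops A4KO replicate 5, which has no WT library of its number, and *MT2A* lost its call without that library alone (limma adjusted p = 0.0555). Depth, which the files do not give, limits low values, such as *MT1G* in 786O and *MT1JP* in CAKi-1.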

Other observations

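*MT2A* spanned 1.61-fold from the lowest to the highest of 4 WT libraries of CAKi-1 and 1.05-fold over 3 WT libraries of 786O. WT replicate 4 of CAKi-1 was the highest of its group for *MT2A*, *MT1X*, *MT1E*, *MT1A* and *MT1G*, and also for *FTH1* (8180 TPM) and *CEBPD* (94.6 TPM), and the lowest for *KRT8* (1223 TPM) and *KRT18* (762 TPM). These are the directions in which the A4KO libraries differed from WT for *MT2A*, *MT1X*, *FTH1*, *CEBPD*, *KRT8* and *KRT18*. The same held for *HMOX1* (60.5 TPM) and *CA12* (1.90 TPM), the highest of the WT libraries there, and for *SLC30A1* (26.4 TPM) and *VIM* (3078 TPM), the lowest. *ANGPTL4* in this library, at 71.7 TPM, was also the lowest of the WT libraries (74.9 to 86.9 TPM in the others). Other genes went against the A4KO direction there, with *MT1A* (71.5 TPM) and *CDH2* (73.5 TPM) the highest of the WT libraries and lower in A4KO cells, and *TSC22D3* (6.04 TPM) the lowest and higher in A4KO cells. *MT1F*, at 23.3 TPM, did not stand out there. Across all genes of at least 1 TPM, WT replicate 4 had median absolute log2 differences of 0.21 to 0.342 from the A4KO libraries. It was no nearer to them than WT replicates 1 (0.21 to 0.335) and 3 (0.209 to 0.331), and slightly nearer than WT replicate 2 (0.215 to 0.347).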
